A study of Homo sapiens with 24 samples.

Results

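Genes that make and crosslink the extracellular matrix were followed in a pair of human EGFR-mutant non-small cell lung cancer lines, PC9 and HCC4006, with and without YAP1 and with and without a drug pair that blocks EGFR and MEK. The set was a list of 43 genes: chains of collagen, the enzymes that hydroxylate and crosslink collagen, laminin chains, proteoglycans and matrix glycoproteins. Of the 25365 gene rows in the deposited table, 13996 reached 1 FPKM (fragments per kilobase of transcript, scaled to the mapped total of the library) in at least 3 of the 24 libraries, and 39 of the 43 listed genes were among them. The kept genes with the fewest libraries at that level, COL1A2 and COL13A1, reached it in 9 libraries. The 4 genes left out, COL3A1, COL5A2, COL6A3 and BGN, reached it in 0 libraries, with highest values of 0.0421, 0.367, 0.268 and 0.194 FPKM. Within a line a gene was tested where it reached 1 FPKM in at least 3 of that line's 12 libraries, which held for 33 of the kept genes in PC9 and 37 in HCC4006, 31 of them in both.

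The libraries formed 8 groups of 3 dishes. In each line, control cells (CTRL) and YAP1 knockout cells (YAP1 KO) received DMSO, the solvent, or osimertinib at 100 nM, an inhibitor of mutant EGFR, together with trametinib at 30 nM, an inhibitor of MEK. The combination is called OT, and exposure lasted 24 h in all groups. All cells were grown in RPMI-1640 with serum, with no matrix substrate or second cell type named in the labels. The column names carry 1 knockout population per line, so the effect of losing YAP1 and the history of that population cannot be told apart. The replicates are separate culture dishes of the same line, so p-values measure the spread between dishes.

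The extracellular matrix is the protein network that cells secrete around themselves. Epithelial cells rest on a basement membrane of type IV collagen, laminin, perlecan and agrin, while fibrillar collagens, fibronectin and their binding proteins form the interstitial matrix that is laid down mainly by fibroblasts and thickened in the stroma of carcinomas. Collagen chains are hydroxylated on proline and lysine inside the cell, and the lysyl oxidases then crosslink them outside it. YAP1 is a transcriptional coactivator that binds DNA through TEAD factors, responds to matrix stiffness, and has several matrix genes among its known targets.

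The sum of FPKM over all rows ran from 507120 to 660459 between libraries, and the read depth is unknown because the table holds no counts. A pair of libraries stood apart. Of 10 genes at 25 FPKM or more in all 12 HCC4006 libraries and at a median under 0.1 FPKM in PC9, PC9 CTRL OT replicate 3 held a median of 1.85% of the HCC4006 level, against 0% to 0.236% in the other 11 PC9 libraries. For 11 genes with the reverse pattern, HCC4006 YAP1 KO OT replicate 1 held a median of 0.481% of the PC9 level, against 0% to 0.113% in the other 11 HCC4006 libraries. The rule for these genes was chosen after their values were seen, and the source of the signal was not tested. Without the first, calls were lost for FN1 and PLOD2 in PC9 YAP1 KO with OT. They were also lost for FN1, COL6A1 and LAMB3 in the PC9 difference between the genotypes' OT responses. The adjusted p of these lay between 0.0608 and 0.0979. TGFBI gained calls, and COL4A1 gained a call in the line difference of YAP1 KO with OT, at -0.24 (adjusted p = 0.0152). Without the second, calls were lost for COL6A1, COL18A1, PLOD1 and HSPG2 in HCC4006 YAP1 KO with OT. They were also lost for FN1 and COL17A1 in the OT change of YAP1 KO, and for COL17A1 and LOXL4 in the difference between responses. PLOD1 lost its call between lines, and the adjusted p of all these lay between 0.0525 and 0.146.

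YAP1 was lower in every knockout library. In PC9 the values were 43.3, 42.5 and 42.9 FPKM under DMSO and 33.8, 34.2 and 34.5 with OT in CTRL cells, and 12.2, 12.4 and 11.6 under DMSO and 11.6, 10.1 and 11.3 with OT in YAP1 KO cells. In HCC4006 they were 18.5, 16.5 and 19.7 FPKM under DMSO and 16.9, 13.9 and 15.6 with OT in CTRL cells, and 4.23, 4.59 and 3.9 under DMSO and 5.97, 6.34 and 6.07 with OT in YAP1 KO cells. The log2 change of FPKM + 1 in YAP1 KO was -1.75 ± 0.05 SE (adjusted p = 3.36e-10) under DMSO and -1.55 ± 0.05 SE (adjusted p = 3.89e-10) with OT in PC9, and -1.88 ± 0.08 SE (adjusted p = 4.26e-08) and -1.20 ± 0.08 SE (adjusted p = 2.99e-07) in HCC4006. Transcript remained in the knockouts, and a value over the whole gene does not read the edited site.

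The labelled epithelial identity was checked with marker lists. All 8 epithelial markers reached 1 FPKM in at least 3 libraries, with a summed level of 3258 to 9943 FPKM per library, although NKX2-1 was at 0 to 0.938 FPKM in PC9. Of 9 fibroblast and mural cell markers 3 did so, at a summed 1.67 to 7.19 FPKM. DCN and PDGFRA were at 0 in all PC9 libraries and TCF21 at 0 in all HCC4006 libraries. In HCC4006 this summed level moved with both variables: it was 4.90 to 4.98 FPKM in CTRL under DMSO and 5.54 to 7.19 with OT, and 2.35 to 2.60 and 3.30 to 3.36 in YAP1 KO. Of its members tested in HCC4006, ACTA2 rose with OT in CTRL by 0.58 (adjusted p = 0.000281) while THY1 fell, at -0.25 (adjusted p = 0.0131). In YAP1 KO under DMSO, THY1 was lower, at -1.50 (adjusted p = 4.05e-07), and the ACTA2 difference of -0.24 (adjusted p = 0.161) did not pass the test. With OT both were lower in YAP1 KO, THY1 at -1.40 (adjusted p = 1.11e-07) and ACTA2 at -0.55 (adjusted p = 0.00153). Endothelial markers (1 of 4 at 1 FPKM) went from 0.312 to 0.443 FPKM under DMSO to 5.22 to 6.54 with OT in HCC4006 CTRL, most of it KDR, with PECAM1 at 0 in all 3 OT libraries. Immune markers (2 of 5) went from 21.9 to 24.8 FPKM to 82.8 to 85.6 FPKM in the same groups, most of it CD68. In bulk RNA, fewer cells of a type and less RNA per cell cannot be told apart, and the part of these markers in the matrix results was not tested.

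HCC4006 carried the larger matrix transcript load. Summed over the 39 genes, the level in CTRL cells under DMSO was 598.8 to 610.5 FPKM in PC9 and 2225 to 2260 FPKM in HCC4006. In HCC4006, TGFBI alone made up 50.7% to 51.8% of that sum, against 25.8% to 26.1% in PC9. Of the 39 genes, 24 were higher and 11 lower in HCC4006 CTRL under DMSO than in PC9 CTRL under DMSO at an adjusted p under 0.05, where 82.6% of the 13996 genes tested differed, 39.2% higher and 43.4% lower. A difference of at least 2-fold was called for 17 genes higher and 5 lower, beside 11.0% and 12.1% of all genes. These counts and shares include genes that reached the minimum in a single line. Of the members, 6 did so in HCC4006 only and 2 in PC9 only. They entered the test through the line where they were high. Fold changes here and below are on the scale of log2(FPKM + 1), which understates the change of low genes, and a value given with an adjusted p is such a log2 change or difference. Within a line, some members reached the minimum only in the condition where they were high. In PC9 these were COL4A1 in CTRL, LOX under DMSO, COL16A1 with OT and COL13A1 in YAP1 KO under DMSO. In HCC4006 they were COL13A1 under DMSO and LOXL4 with OT. Counts below include them, and their tests between those conditions draw on the values that passed them.

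**Figure D1:**
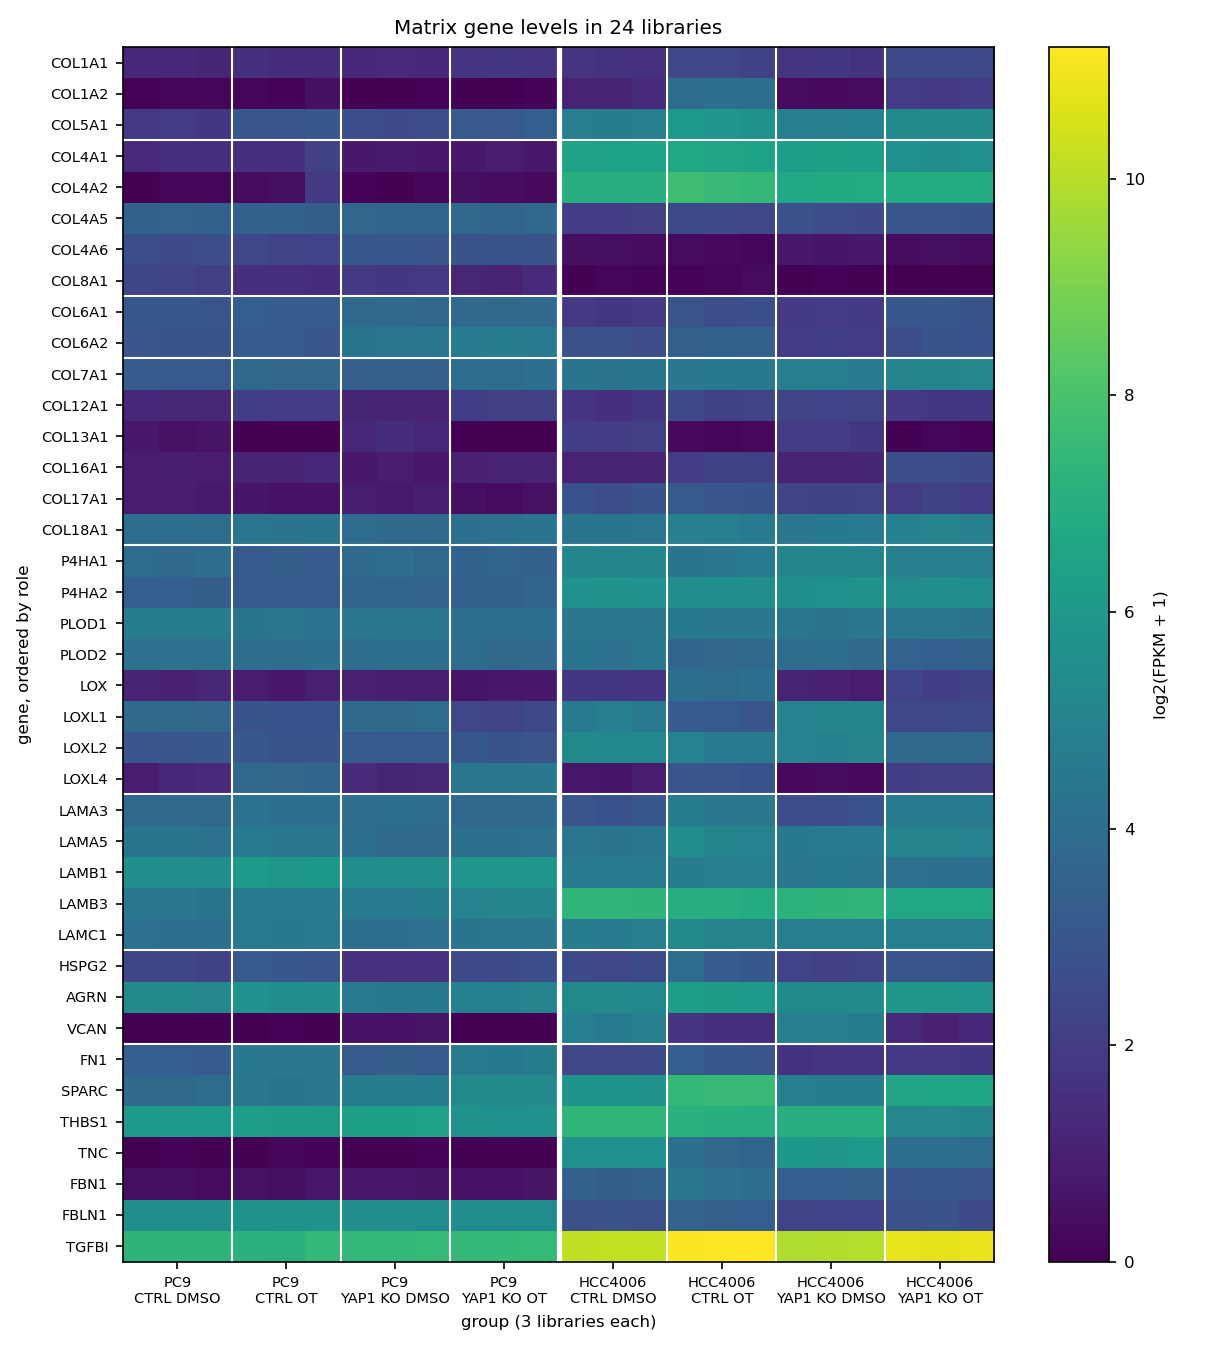
Levels of the 39 kept genes, ordered by role (rows), in the 24 libraries (columns, 3 per group), with colour giving log2(FPKM + 1). The block of HCC4006 libraries is brighter for COL4A1, COL4A2, TNC, VCAN and TGFBI, and the PC9 block is brighter for FBLN1, COL4A5, COL4A6 and COL8A1.

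OT raised a majority of the tested matrix genes in CTRL cells of both lines. In PC9 CTRL, 20 of 33 rose and 8 fell, in a comparison where 73.0% of all 12685 genes tested were called, 32.0% higher and 40.9% lower. The members' median log2 change was 0.22 against a median of -0.045 over all genes. Past 2-fold, 3 rose and 0 fell, beside 3.28% and 4.60% of all genes. The PC9 CTRL median over all genes was 0.003 with median-of-ratios scaling and 0.007 with every library rescaled to the same sum. Of the called genes 49.6% and 50.1% were then higher, in place of 43.9%. Either scaling gave 21 members higher and 7 lower. In HCC4006 CTRL, 25 of 37 rose and 10 fell, where 81.6% of 13113 genes were called, 45.0% higher and 36.6% lower. The members' median was 0.55 against 0.087 over all genes. Past 2-fold, 7 rose and 4 fell, beside 11.9% and 9.74%. That median of all genes moved to -0.025 with median-of-ratios scaling, which left 22 members higher and 10 lower. It moved to 0.279 with every library rescaled to the same sum, which gave 27 and 8 members, and 66.6% of called genes higher in place of 55.1%.

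By role, all 5 laminin chains, both tested fibrillar collagens and both type VI chains rose in PC9 CTRL, and in HCC4006 CTRL 4 of 5 laminin chains, 3 of 3 fibrillar collagens and both type VI chains rose. Of the 8 collagen-modifying enzymes, PC9 CTRL had 5 that fell and 1 that rose, and HCC4006 CTRL had 5 that fell and 2 that rose. Of these calls, LAMA5 in PC9 was lost without CTRL DMSO replicate 3 (adjusted p = 0.0561) or CTRL OT replicate 1 (0.059), and PLOD2 in PC9 without CTRL OT replicate 2 (0.0514) and under both rescalings (0.0518 and 0.0653). LAMB1 in HCC4006 was lost without CTRL OT replicate 3 (0.0576) and with median-of-ratios scaling (0.7), and P4HA2 changed sign with equal library sums, as given below. In YAP1 KO cells the balance was closer. OT raised 16 and lowered 11 of 33 members in PC9 YAP1 KO (78.3% of all genes called, 36.9% higher and 41.4% lower). Past 2-fold these were 3 and 2 (5.85% and 7.83% of all genes). In HCC4006 YAP1 KO it raised 19 and lowered 15 of 37 (82.8% called, 46.4% higher and 36.5% lower). Past 2-fold these were 7 and 6 (14.6% and 11.0%). With median-of-ratios scaling the HCC4006 YAP1 KO counts were 17 and 17, and with equal library sums 21 and 11. Of all called genes there 56% were higher, 47.8% with median-of-ratios scaling and 65.3% with equal sums. In PC9 YAP1 KO the counts stayed at 16 and 11 with median-of-ratios scaling. They were 16 and 9 with equal sums, where 55.3% of called genes were higher in place of 47.1%.

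**Figure D2:**
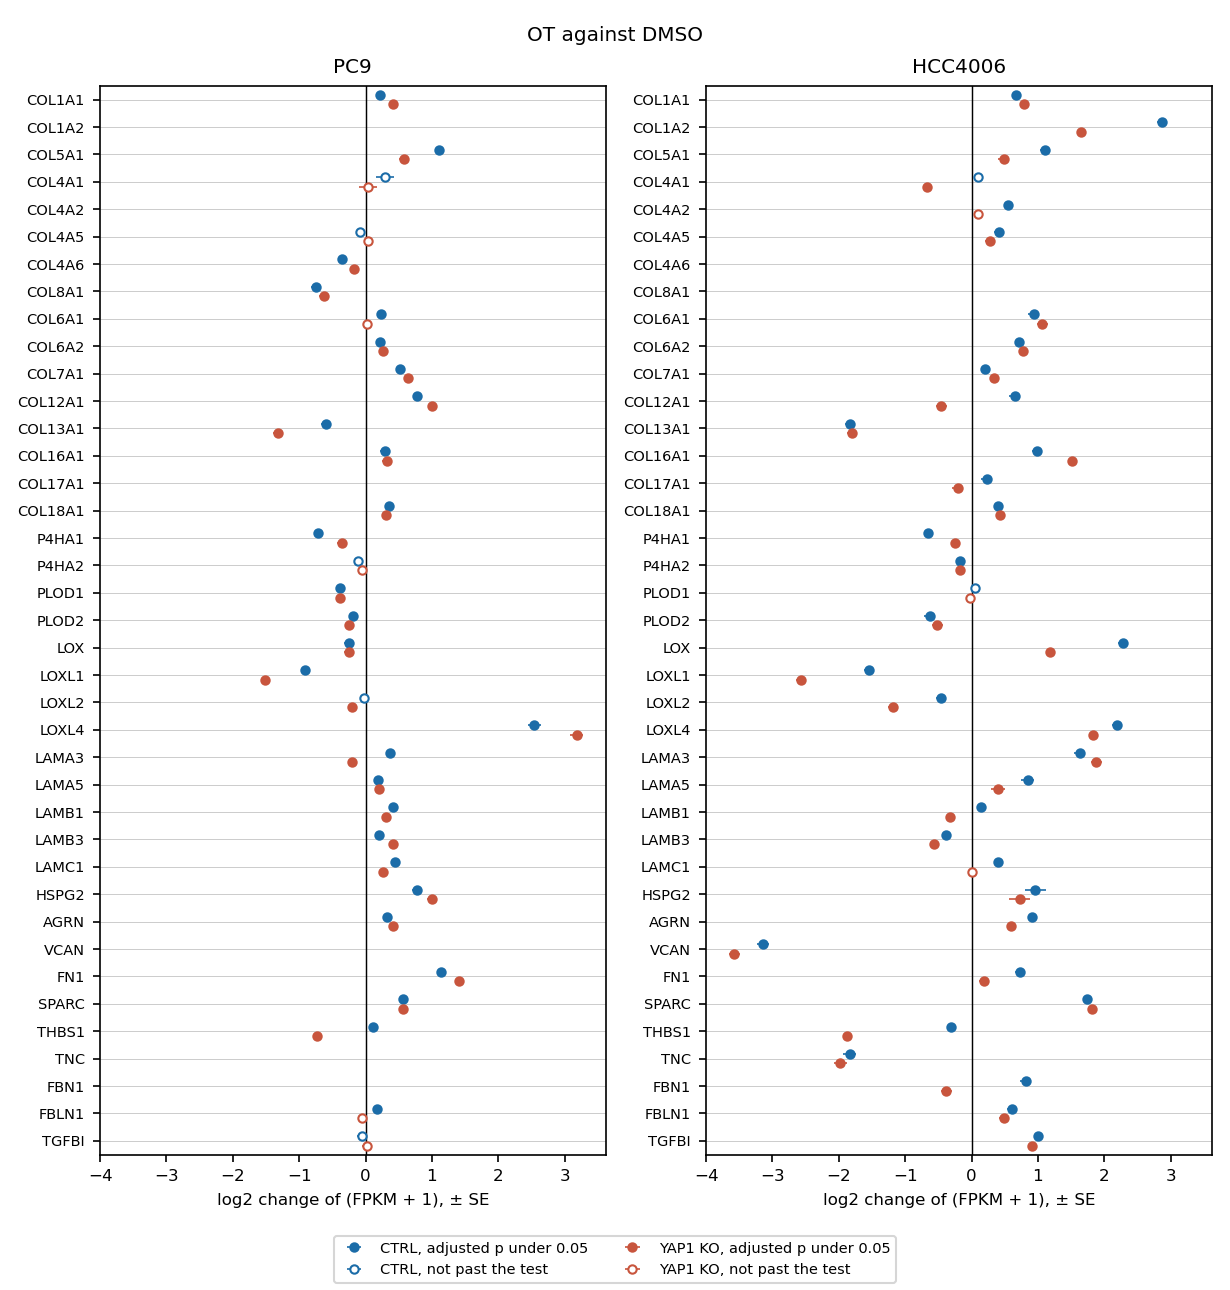
Log2 change of FPKM + 1 with OT against DMSO for each gene, in CTRL (blue) and YAP1 KO cells (red) of PC9 (left) and HCC4006 (right), with bars of 1 SE and filled points for an adjusted p under 0.05. In HCC4006, LOXL4 rose by 2.19 and VCAN fell by 3.14 in CTRL cells, and red points lie left of blue ones for THBS1, FBN1 and COL12A1.

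In YAP1 KO, more members were higher than lower in PC9 under DMSO, and more were lower than higher in HCC4006 under both treatments. In PC9 under DMSO, 13 of 33 genes were higher and 6 lower in YAP1 KO, where 39.9% of all genes were called, 19.8% higher and 20.0% lower. With OT 14 were higher and 14 lower, where 53.7% were called, 28.5% higher and 25.2% lower; of the called genes 53% were higher, and 42.6% with median-of-ratios scaling. In HCC4006 under DMSO, 5 of 37 were higher and 15 lower, where 17.8% of all genes were called, 9.20% higher and 8.65% lower; of the called genes 51.5% were higher, and 61.6% with equal library sums. With OT, 6 were higher and 25 lower, where 43.6% were called, 27.2% higher and 16.4% lower; of the called genes 62.3% were higher, and 50.5% with median-of-ratios scaling. The members' median log2 difference in that last comparison was -0.41, against 0.059 over all genes. A fall of at least 2-fold was called for 6 members, beside 1.52% of all genes. Of 7 matrix glycoproteins 6 were lower in HCC4006 YAP1 KO with OT, as were 6 of 8 collagen-modifying enzymes and 3 of 3 proteoglycans. Among these, PLOD2 lost its call without CTRL OT replicate 3 (adjusted p = 0.062) or YAP1 KO OT replicate 2 (0.0717), and PLOD1 without any 1 of 5 libraries, CTRL OT replicates 1, 2 and 3 (0.0551, 0.052 and 0.0523) and YAP1 KO OT replicates 1 and 3 (0.0525 and 0.138), and with equal library sums (0.164). HSPG2 lost it without any 1 YAP1 KO OT library, as given with its values, with no filter on low values (0.0631) and with equal sums (0.0689). The summed level of fibroblast and mural markers was lower in HCC4006 YAP1 KO as well, at the values given above.

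The OT response itself differed between genotypes. In HCC4006, the OT change was larger in YAP1 KO than in CTRL, taken with its sign, for 2 of 37 genes and smaller for 17, where 18.6% of all genes were called, 10.5% and 8.18%; of the called genes 56.1% were on the larger side, and 45.8% with median-of-ratios scaling. A difference of at least 2-fold was called for 6 members, all with the smaller value in YAP1 KO, beside 0.740% of all genes. One of them, COL1A2, lost its call with 0.1 FPKM added (-0.38, adjusted p = 0.133), and its OT ratios of mean FPKM were 12.2 and 12.1. In PC9 the counts were 4 and 8 of 33, where 27.0% were called, 13.2% and 13.8%. With every library rescaled to the same sum the counts were 6 and 6, and 60.7% of the called genes were on the larger side in place of 48.9%. Median-of-ratios scaling moved them the other way, to 3 and 9 members and 39.5% of the called genes.

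**Figure D3:**
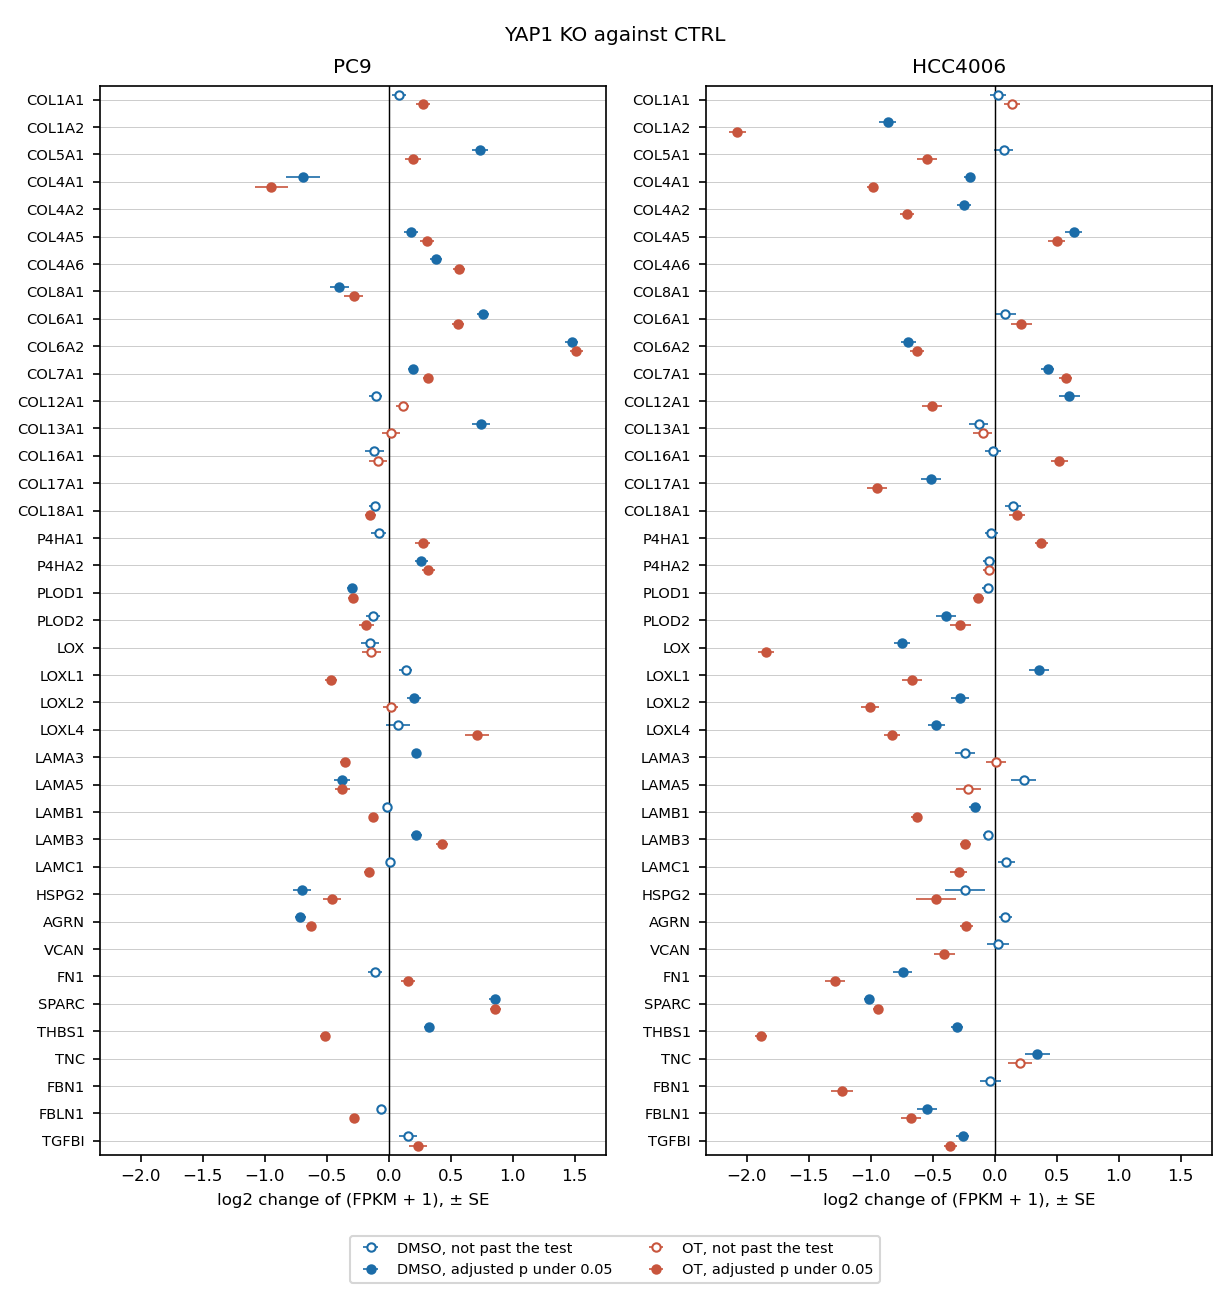
Log2 difference of FPKM + 1 between YAP1 KO and CTRL for each gene, under DMSO (blue) and with OT (red), in PC9 (left) and HCC4006 (right), with bars of 1 SE and filled points for an adjusted p under 0.05. COL6A2 and SPARC lie right of 0 in PC9 and left of 0 in HCC4006, and THBS1 in HCC4006 moves from -0.31 under DMSO to -1.88 with OT.

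The lines were also compared directly over the 31 genes tested in both. The OT response in CTRL cells was larger in HCC4006, taken with its sign, for 13 genes and smaller for 10, where 65.2% of 11845 genes were called, 38.1% and 27.1%. With every library rescaled to the same sum the members' counts were 14 and 5, and with median-of-ratios scaling 13 and 13. Of the called genes 58.4% were on the larger side, 44.3% with median-of-ratios scaling and 72.2% with equal sums. The difference of YAP1 KO from CTRL under DMSO was larger for 8 and smaller for 16 genes, where 30.0% were called, 16.7% and 13.3%. With OT it was larger for 6 and smaller for 15, where 42.5% were called, 25.4% and 17.1%. All 5 glycoproteins tested in both lines were among the smaller ones under DMSO and again with OT.

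Fibrillar collagens form the cable-like fibres of interstitial matrix. COL1A2, the alpha 2 chain of type I collagen, was at 0.356 FPKM or less in every PC9 library, the highest value being in PC9 CTRL OT replicate 3, and was not tested there. In HCC4006 it was at 1.11, 1.17 and 1.5 FPKM under DMSO and 14.8, 16 and 15.5 with OT in CTRL cells, and 0.241, 0.224 and 0.254 under DMSO and 2.99, 2.67 and 3.05 with OT in YAP1 KO cells. The 4 groups did not overlap, and OT libraries were above DMSO libraries in each genotype. The log2 change with OT was 2.86 ± 0.07 SE (adjusted p = 4.42e-12) in CTRL and 1.65 ± 0.07 SE (adjusted p = 3.99e-10) in YAP1 KO. The YAP1 KO difference was -0.86 ± 0.07 SE (adjusted p = 1.17e-05) under DMSO and -2.07 ± 0.07 SE (adjusted p = 1.58e-09) with OT. As ratios of mean FPKM, OT multiplied COL1A2 by 12.2 in CTRL and by 12.1 in YAP1 KO, and YAP1 KO held 0.19 of the CTRL level under DMSO and 0.188 with OT. The difference between the OT responses was -1.21 (adjusted p = 1.13e-05) with 1 FPKM added and -0.38 (adjusted p = 0.133) with 0.1 FPKM added, so that call rests on the pseudocount.

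COL1A1, the partner chain of COL1A2, was low in HCC4006 too, with means of 2.17 FPKM under DMSO and 4.06 with OT in CTRL cells, and 2.23 and 4.56 in YAP1 KO. It rose with OT by 0.67 (adjusted p = 6.19e-07) in CTRL and 0.79 (adjusted p = 1.23e-07) in YAP1 KO, while its YAP1 KO differences of 0.03 (adjusted p = 0.828) under DMSO and 0.14 (adjusted p = 0.0886) with OT did not pass the test.

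COL5A1, a chain of the type V collagen found inside type I fibrils, was the most abundant fibrillar collagen of the set per length. In PC9 it was at 2.74, 2.89 and 2.53 FPKM under DMSO and 7.12, 6.81 and 7.22 with OT in CTRL cells, and 5.25, 4.88 and 5.5 under DMSO and 7.87, 7.73 and 9.17 with OT in YAP1 KO cells. HCC4006 libraries held 27.2, 25.1 and 26.7 FPKM under DMSO and 66.4, 56.1 and 51.5 with OT in CTRL cells, and 27.4, 26.6 and 29.3 under DMSO and 40.8, 38 and 38.8 with OT in YAP1 KO cells. Within each genotype of both lines, every OT library was above every DMSO library. The rise with OT was 1.11 ± 0.06 SE (adjusted p = 1.3e-08) in PC9 CTRL and 0.57 ± 0.06 SE (adjusted p = 4.43e-06) in PC9 YAP1 KO, and 1.10 ± 0.08 SE (adjusted p = 4.7e-08) and 0.48 ± 0.08 SE (adjusted p = 8.7e-05) in HCC4006. The responses of the genotypes differed by -0.54 (adjusted p = 0.0011) in PC9 cells and -0.62 (adjusted p = 0.00213) in HCC4006. Under DMSO YAP1 KO was higher by 0.74 (adjusted p = 3.5e-06) in PC9, and in HCC4006 the difference was 0.07 (adjusted p = 0.575). With OT, YAP1 KO was lower, at -0.55 (adjusted p = 0.000151) in HCC4006.

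Network-forming collagens build the basement membrane sheet. COL4A1 and COL4A2 encode its common chains and lie head to head, and COL4A5 and COL4A6 encode chains of the rarer epithelial network and also lie head to head. Their promoters are shown because each pair has its own line pattern. Each window holds the 250 bases before and the first 50 bases of the gene as annotated by RefSeq on GRCh38.p14, printed 5′ to 3′ along the gene. Capitals mark the bases that the windows of a pair share, which are on opposite strands and so read as reverse complements. The COL4A1 window is chr13:110307108-110307407, minus strand, the COL4A2 window is chr13:110307034-110307333, plus strand, their starts are 127 bases apart, and 226 bases are shared. The COL4A6 window is chrX:108439409-108439708, minus strand, the COL4A5 window is chrX:108439588-108439887, plus strand, their starts are 380 bases apart, and 121 bases are shared.
COL4A1: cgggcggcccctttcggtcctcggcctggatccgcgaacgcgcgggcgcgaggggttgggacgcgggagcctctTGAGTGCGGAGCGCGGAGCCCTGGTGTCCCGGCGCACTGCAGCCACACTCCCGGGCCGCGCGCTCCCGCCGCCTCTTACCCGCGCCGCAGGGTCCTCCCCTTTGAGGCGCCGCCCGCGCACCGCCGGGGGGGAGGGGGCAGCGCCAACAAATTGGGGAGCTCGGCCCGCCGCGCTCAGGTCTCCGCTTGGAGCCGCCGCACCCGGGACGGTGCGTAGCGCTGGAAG
COL4A2: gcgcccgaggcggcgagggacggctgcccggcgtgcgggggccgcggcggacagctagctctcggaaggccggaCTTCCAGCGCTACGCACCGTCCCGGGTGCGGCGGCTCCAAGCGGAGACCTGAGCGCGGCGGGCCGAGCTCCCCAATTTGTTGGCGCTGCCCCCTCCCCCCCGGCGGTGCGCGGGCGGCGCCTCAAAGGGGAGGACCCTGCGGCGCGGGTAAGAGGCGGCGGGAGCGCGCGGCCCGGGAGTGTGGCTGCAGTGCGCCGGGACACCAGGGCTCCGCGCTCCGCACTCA
COL4A6: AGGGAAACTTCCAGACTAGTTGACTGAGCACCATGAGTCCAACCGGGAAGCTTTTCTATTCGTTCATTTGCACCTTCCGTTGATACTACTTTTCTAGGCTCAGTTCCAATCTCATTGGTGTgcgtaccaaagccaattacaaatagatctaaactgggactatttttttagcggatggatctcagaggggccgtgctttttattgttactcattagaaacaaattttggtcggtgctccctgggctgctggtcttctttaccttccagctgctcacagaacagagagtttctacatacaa
COL4A5: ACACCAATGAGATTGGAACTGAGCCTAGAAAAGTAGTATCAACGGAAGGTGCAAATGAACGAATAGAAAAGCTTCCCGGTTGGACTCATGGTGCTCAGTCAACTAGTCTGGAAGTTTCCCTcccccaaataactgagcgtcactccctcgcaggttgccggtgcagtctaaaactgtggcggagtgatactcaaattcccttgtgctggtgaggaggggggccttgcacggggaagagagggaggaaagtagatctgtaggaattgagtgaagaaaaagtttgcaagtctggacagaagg

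COL4A1 was low in PC9, at 1.56, 1.83 and 1.91 FPKM under DMSO and 1.97, 1.89 and 3.48 with OT in CTRL cells, and 0.686, 0.772 and 0.679 under DMSO and 0.709, 0.823 and 0.72 with OT in YAP1 KO cells. The HCC4006 levels were 87.7, 89.2 and 90.2 FPKM under DMSO and 103, 93.4 and 90.9 with OT in CTRL cells, and 76, 79.1 and 76.7 under DMSO and 48.2, 47 and 48.5 with OT in YAP1 KO cells. The line difference in CTRL under DMSO was 5.03 ± 0.10 SE (adjusted p = 1.03e-19). In HCC4006 the KO OT libraries were the lowest, and the CTRL OT libraries overlapped no other group. OT lowered COL4A1 in HCC4006 YAP1 KO, at -0.68 (adjusted p = 3.48e-08), and its change in CTRL was 0.10 (adjusted p = 0.0567). In HCC4006 with OT, YAP1 KO was lower, at -0.98 (adjusted p = 2.18e-08). In PC9 the YAP1 KO difference was -0.69 (adjusted p = 0.0016) under DMSO and -0.95 (adjusted p = 9.83e-05) with OT. Without PC9 CTRL OT replicate 3 the last value was -0.74 (adjusted p = 1.11e-05). Only CTRL libraries of PC9 reached 1 FPKM, so COL4A1 was tested there through its higher groups.

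COL4A2, which shares most of its window with COL4A1, was at 0.086, 1.14, 0.0896 and 0.284 FPKM on average in the 4 PC9 groups, and the only PC9 library above 1 FPKM was PC9 CTRL OT replicate 3 at 2.80. Its values in HCC4006 were 131, 131 and 132 FPKM under DMSO and 211, 190 and 178 with OT in CTRL cells, and 106, 110 and 116 under DMSO and 120, 117 and 116 with OT in YAP1 KO cells. OT raised it in CTRL by 0.55 (adjusted p = 1.51e-06), and the change in YAP1 KO was 0.09 (adjusted p = 0.151). With OT it was lower in YAP1 KO, at -0.71 (adjusted p = 1.38e-06).

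COL4A5 and COL4A6 ran the other way between lines, with log2 differences in HCC4006 against PC9 of -1.44 ± 0.06 SE (adjusted p = 1.62e-14) and -2.25 ± 0.05 SE (adjusted p = 1.17e-18). COL4A6 had PC9 means of 5.34 FPKM under DMSO and 3.95 with OT in CTRL, and 7.26 and 6.35 in YAP1 KO, and was at 0.725 FPKM or less in HCC4006. COL4A6 entered the line test through PC9 alone, the line where it was high. In PC9 it was higher in YAP1 KO by 0.38 (adjusted p = 6.7e-05) under DMSO and 0.57 (adjusted p = 1.36e-06) with OT, the opposite sign to COL4A1. COL4A5 was higher in HCC4006 YAP1 KO by 0.64 (adjusted p = 9.58e-05) under DMSO and 0.50 (adjusted p = 0.000133) with OT. COL8A1, a short-chain network collagen, fell with OT in PC9, at -0.74 (adjusted p = 3.04e-06) in CTRL and -0.63 (adjusted p = 1.09e-05) in YAP1 KO, from means of 3.79 and 2.63 FPKM.

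Type VI collagen makes the beaded filaments that link cells to the interstitial matrix. COL6A2 had opposite YAP1 KO differences in the lines. PC9 libraries held 6.8, 6.56 and 6.23 FPKM under DMSO and 8.01, 8.17 and 7.13 with OT in CTRL cells, and 19.5, 20.1 and 20.2 under DMSO and 23.1, 25.4 and 23.6 with OT in YAP1 KO cells. Across HCC4006 libraries it stood at 5.79, 5.79 and 5.25 FPKM under DMSO and 9.6, 10.1 and 9.72 with OT in CTRL cells, and 3.02, 3.23 and 2.98 under DMSO and 5.55, 6.38 and 6.13 with OT in YAP1 KO cells. All 6 PC9 YAP1 KO libraries were above all 6 PC9 CTRL libraries, whereas in HCC4006 each YAP1 KO group was below the CTRL group of the same treatment. YAP1 KO was higher in PC9 by 1.48 ± 0.05 SE (adjusted p = 3.37e-09) under DMSO and 1.51 ± 0.05 SE (adjusted p = 1.32e-09) with OT. It was lower in HCC4006, at -0.70 ± 0.06 SE (adjusted p = 1.33e-05) and -0.63 ± 0.06 SE (adjusted p = 6.32e-06). The difference between lines, HCC4006 minus PC9, was -2.17 (adjusted p = 5.64e-14) under DMSO and -2.14 (adjusted p = 4.82e-14) with OT.

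COL6A1, which pairs with the COL6A2 chain, was at 7.42, 7.54 and 6.94 FPKM under DMSO and 9.06, 8.5 and 8.63 with OT in CTRL cells, and 13.8, 13.1 and 12.2 under DMSO and 13.1, 13.8 and 13.1 with OT in YAP1 KO cells in PC9. In HCC4006 it was at 2.6, 2.45 and 2.69 FPKM under DMSO and 6.71, 5.29 and 5.62 with OT in CTRL cells, and 2.75, 2.92 and 2.73 under DMSO and 7.27, 7.41 and 6.23 with OT in YAP1 KO cells. It was higher in PC9 YAP1 KO by 0.76 ± 0.05 SE (adjusted p = 2.74e-07) under DMSO and 0.56 ± 0.05 SE (adjusted p = 1.76e-06) with OT, as COL6A2 was. In HCC4006 it rose with OT by 0.94 (adjusted p = 3.54e-07) in CTRL and 1.06 (adjusted p = 9.03e-08) in YAP1 KO, and its YAP1 KO difference under DMSO, 0.09 (adjusted p = 0.525), did not pass the test. COL6A3, the remaining chain of the trimer, was among the genes left out for low level.

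Among the collagens that associate with fibrils or anchor cells, COL13A1, a transmembrane collagen of adhesion sites, fell to near 0 with OT. The PC9 levels were 0.642, 0.434 and 0.498 FPKM under DMSO and 0, 0 and 0.0187 with OT in CTRL cells, and 1.46, 1.77 and 1.45 under DMSO and 0.0424, 0.0219 and 0 with OT in YAP1 KO cells. HCC4006 libraries held 3.19, 3.05 and 3.34 FPKM under DMSO and 0.176, 0.149 and 0.193 with OT in CTRL cells, and 3.15, 2.99 and 2.4 under DMSO and 0.0625, 0.144 and 0.0854 with OT in YAP1 KO cells. Every OT library lay below every DMSO library of its line. The fall was -1.84 ± 0.08 SE (adjusted p = 3.6e-10) in HCC4006 CTRL and -1.81 ± 0.08 SE (adjusted p = 3.31e-10) in HCC4006 YAP1 KO, and -0.60 ± 0.07 SE (adjusted p = 1.17e-05) and -1.32 ± 0.07 SE (adjusted p = 5.05e-09) in PC9. Under DMSO it was higher in PC9 YAP1 KO by 0.75 (adjusted p = 8.63e-06). COL13A1 reached 1 FPKM only in the 3 YAP1 KO DMSO libraries of PC9 and the 6 DMSO libraries of HCC4006. Those groups let it into the test, so its p-values there draw on the values that passed it.

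COL12A1, a fibril-associated collagen, rose with OT in PC9, where it was at 1.38, 1.33 and 1.29 FPKM under DMSO and 3.27, 2.88 and 2.89 with OT in CTRL cells, and 1.23, 1.12 and 1.15 under DMSO and 3.28, 3.35 and 3.36 with OT in YAP1 KO cells. The HCC4006 levels were 2.27, 1.98 and 2.42 FPKM under DMSO and 4.67, 3.6 and 3.95 with OT in CTRL cells, and 3.96, 3.73 and 3.98 under DMSO and 2.77, 2.38 and 2.54 with OT in YAP1 KO cells. The OT libraries of HCC4006 were above the DMSO libraries in CTRL and below them in YAP1 KO. The change with OT was 0.78 ± 0.05 SE (adjusted p = 5.55e-08) in PC9 CTRL and 1.00 ± 0.05 SE (adjusted p = 3.6e-09) in PC9 YAP1 KO. It was 0.65 ± 0.08 SE (adjusted p = 1.2e-05) in HCC4006 CTRL and -0.46 ± 0.08 SE (adjusted p = 0.000228) in HCC4006 YAP1 KO, and those responses differed by -1.11 (adjusted p = 5.64e-05).

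COL16A1, a related fibril-associated collagen, was near 1 FPKM in PC9, at 0.827, 0.906 and 0.859 FPKM under DMSO and 1.17, 1.18 and 1.48 with OT in CTRL cells, and 0.628, 0.876 and 0.67 under DMSO and 1.04, 1.19 and 1.2 with OT in YAP1 KO cells. Its values in HCC4006 were 1.18, 1.19 and 1.2 FPKM under DMSO and 2.91, 3.66 and 3.45 with OT in CTRL cells, and 1.08, 1.17 and 1.26 under DMSO and 5.26, 5.25 and 5.1 with OT in YAP1 KO cells. It is a member whose OT response in HCC4006 was larger in YAP1 KO: the rise was 0.98 ± 0.07 SE (adjusted p = 3.89e-08) in CTRL and 1.51 ± 0.07 SE (adjusted p = 5.27e-10) in YAP1 KO, which differed by 0.53 (adjusted p = 0.00232). In CTRL under DMSO, COL7A1, the anchoring fibril collagen beneath epithelia, had a mean of 8.23 FPKM in PC9 and 19.1 in HCC4006, COL17A1, the transmembrane collagen of hemidesmosomes, 0.818 FPKM in PC9 and 5.95 in HCC4006, and COL18A1, the basement membrane collagen that yields endostatin, 15.2 FPKM in PC9 and 19.7 in HCC4006. COL7A1 was higher in HCC4006 YAP1 KO by 0.43 (adjusted p = 0.000282) under DMSO and 0.57 (adjusted p = 6.21e-06) with OT. COL17A1 was lower there, at -0.51 (adjusted p = 0.00121) under DMSO and -0.95 (adjusted p = 2.64e-06) with OT. COL18A1 rose with OT in CTRL by 0.35 (adjusted p = 1.41e-05) in PC9 cells and 0.40 (adjusted p = 8.28e-05) in HCC4006.

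The lysyl oxidases, which crosslink collagen, split into rising and falling members. LOX was at 1.15, 1.06 and 1.31 FPKM under DMSO and 0.812, 0.673 and 0.99 with OT in CTRL cells, and 1.01, 0.937 and 0.926 under DMSO and 0.568, 0.668 and 0.723 with OT in YAP1 KO cells in PC9. Across HCC4006 libraries it stood at 2.39, 2.44 and 2.24 FPKM under DMSO and 15.6, 14.3 and 16 with OT in CTRL cells, and 1.09, 1.02 and 0.886 under DMSO and 3.75, 3.26 and 3.59 with OT in YAP1 KO cells. In HCC4006 each OT group was above its DMSO group and each YAP1 KO group below its CTRL group, with no overlap. OT raised it there by 2.28 ± 0.07 SE (adjusted p = 1.36e-11) in CTRL and 1.18 ± 0.07 SE (adjusted p = 4.21e-09) in YAP1 KO, a ratio of mean FPKM of 6.49 and 3.54. In PC9 CTRL it fell, at -0.25 (adjusted p = 0.00908), and only DMSO libraries of PC9 reached 1 FPKM. The OT response in CTRL differed between lines by 2.53 (adjusted p = 7.74e-15). In HCC4006 YAP1 KO it was lower, at -0.75 (adjusted p = 1.74e-05) under DMSO and -1.84 (adjusted p = 2.03e-09) with OT, and the OT responses of the genotypes differed by -1.10 (adjusted p = 1.18e-05).

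LOXL4 showed the largest rise with OT of the 33 genes tested in PC9, in CTRL and in YAP1 KO. It was at 0.854, 1.38 and 1.55 FPKM under DMSO and 12.7, 11.9 and 11.6 with OT in CTRL cells, and 1.5, 1.27 and 1.33 under DMSO and 19.9, 19.9 and 21.5 with OT in YAP1 KO cells there. In HCC4006 it was at 0.668, 0.585 and 0.796 FPKM under DMSO and 6.92, 6.95 and 6.13 with OT in CTRL cells, and 0.21, 0.239 and 0.191 under DMSO and 3.17, 3.39 and 3.39 with OT in YAP1 KO cells. No OT library overlapped a DMSO library in either line. The log2 rise was 2.54 ± 0.10 SE (adjusted p = 3.1e-10) in PC9 CTRL and 3.18 ± 0.10 SE (adjusted p = 2.17e-11) in PC9 YAP1 KO, and 2.19 ± 0.07 SE (adjusted p = 2.17e-11) and 1.83 ± 0.07 SE (adjusted p = 7.81e-11) in HCC4006. As ratios of mean FPKM these were 9.58, 15, 9.76 and 15.5. Only OT libraries of HCC4006 reached 1 FPKM, so LOXL4 was tested there through its higher groups. With OT, YAP1 KO was higher in PC9 by 0.71 (adjusted p = 7.26e-05) and lower in HCC4006, at -0.83 (adjusted p = 1.57e-06), a difference between lines of -1.54 (adjusted p = 2.75e-09). The difference between the genotypes' OT responses in HCC4006, -0.36 (adjusted p = 0.0208), was -0.33 (adjusted p = 0.0572) without YAP1 KO OT replicate 1 and turned to 0.33 (adjusted p = 0.222) with 0.1 FPKM added, and in PC9, 0.63 (adjusted p = 0.00511), it became 0.61 (adjusted p = 0.0625).

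LOXL1 fell with OT in both genotypes of both lines. It was at 13.2, 12.5 and 12.1 FPKM under DMSO and 6.32, 6.13 and 6.2 with OT in CTRL cells, and 13.5, 13.9 and 14.4 under DMSO and 4.26, 3.88 and 4.56 with OT in YAP1 KO cells in PC9. HCC4006 libraries held 22.8, 27.7 and 23.7 FPKM under DMSO and 8.53, 8.03 and 6.87 with OT in CTRL cells, and 30.8, 32.9 and 32.1 under DMSO and 4.37, 4.45 and 4.81 with OT in YAP1 KO cells. All OT libraries were below all DMSO libraries within each line, and the YAP1 KO OT group was the lowest in both. OT lowered LOXL1, at -0.91 ± 0.05 SE (adjusted p = 9.71e-09) in PC9 CTRL and -1.51 ± 0.05 SE (adjusted p = 5.48e-11) in PC9 YAP1 KO, and at -1.55 ± 0.08 SE (adjusted p = 2.91e-09) and -2.57 ± 0.08 SE (adjusted p = 2.12e-11) in HCC4006. The responses of the genotypes differed by -0.60 (adjusted p = 9.43e-05) in PC9 cells and -1.02 (adjusted p = 9e-05) in HCC4006.

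LOXL2 was at 6.86, 6.68 and 7.23 FPKM under DMSO and 7.52, 6.47 and 6.55 with OT in CTRL cells, and 8.38, 8.02 and 7.98 under DMSO and 7.41, 6.54 and 6.84 with OT in YAP1 KO cells in PC9. Its OT change there was -0.02 (adjusted p = 0.815) in CTRL, not past the test, and -0.20 (adjusted p = 0.00703) in YAP1 KO, a call lost with equal library sums (-0.12, adjusted p = 0.108). The HCC4006 levels were 37.3, 37 and 36.2 FPKM under DMSO and 30.8, 24.5 and 24.4 with OT in CTRL cells, and 30, 29.1 and 31.5 under DMSO and 12.4, 13 and 12.7 with OT in YAP1 KO cells. In HCC4006 it fell with OT, at -0.46 ± 0.07 SE (adjusted p = 8.76e-05) in CTRL and -1.19 ± 0.07 SE (adjusted p = 1.23e-08) in YAP1 KO, which differed by -0.73 (adjusted p = 0.000541). With OT it was lower in HCC4006 YAP1 KO, at -1.01 (adjusted p = 7.33e-07), and in PC9 that difference was 0.02 (adjusted p = 0.831). The difference between lines was -1.02 (adjusted p = 4.69e-08).

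Enzymes that act on collagen inside the cell had smaller changes. P4HA1, a catalytic subunit of prolyl 4-hydroxylase, fell with OT from a mean of 14.6 to 8.51 FPKM in PC9 CTRL, a change of -0.72 (adjusted p = 5.62e-07), and from 33.7 to 21.1 FPKM in HCC4006 CTRL, a change of -0.66 (adjusted p = 1.85e-07). With OT it was higher in YAP1 KO by 0.27 (adjusted p = 0.003) in PC9 cells and 0.38 (adjusted p = 0.000145) in HCC4006. PLOD2, the lysyl hydroxylase of collagen telopeptides, fell with OT, at -0.63 (adjusted p = 1.4e-05) in HCC4006 CTRL and -0.51 (adjusted p = 7.82e-05) in HCC4006 YAP1 KO. PLOD1, which hydroxylates helical lysines, fell in PC9, at -0.39 (adjusted p = 8.1e-07) in CTRL and -0.38 (adjusted p = 7.55e-07) in YAP1 KO, and its change in HCC4006 CTRL, 0.06 (adjusted p = 0.264), did not pass. P4HA2, the other catalytic subunit, had an OT change in HCC4006 CTRL of -0.18 (adjusted p = 0.00392), which turned to 0.041 (adjusted p = 0.509) with every library rescaled to the same sum. The mean in CTRL under DMSO was 9.12 FPKM in PC9 and 50.9 in HCC4006 for P4HA2, 25.6 FPKM in PC9 and 20.9 in HCC4006 for PLOD1, and 17.7 FPKM in PC9 and 19.5 in HCC4006 for PLOD2.

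**Figure D4:**
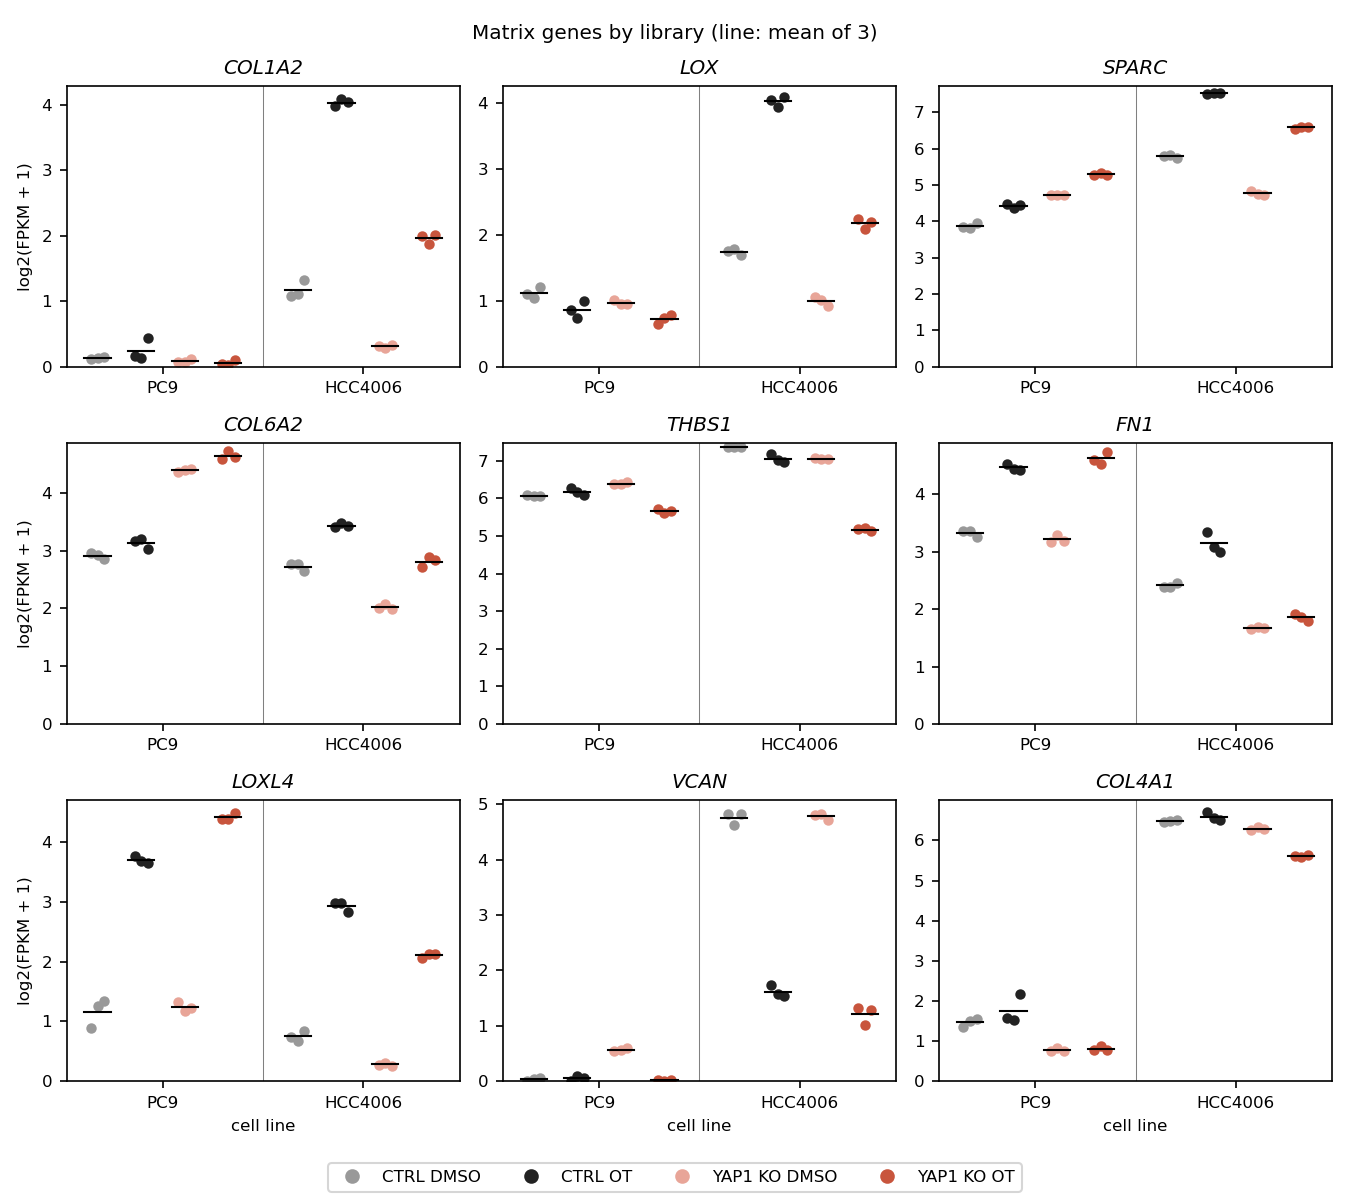
Levels of 9 genes in each library as log2(FPKM + 1), with 3 points per group and a line at their mean, PC9 left and HCC4006 right in each panel. COL1A2, LOX and SPARC rise with OT and are lower in YAP1 KO in HCC4006, VCAN drops from 23.8 to 27.4 FPKM to 1.90 to 2.32 FPKM in HCC4006 CTRL, and COL6A2 and SPARC are higher in YAP1 KO in PC9.

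Laminin chains assemble into the trimers that bind epithelial integrins. LAMA3, the alpha chain of the hemidesmosome laminin, was at 12.9, 13.1 and 13 FPKM under DMSO and 18.1, 16.6 and 16.8 with OT in CTRL cells, and 15.1, 15.8 and 15.2 under DMSO and 12.9, 13 and 13.8 with OT in YAP1 KO cells in PC9. Its values in HCC4006 were 7.09, 6.06 and 7.25 FPKM under DMSO and 26.2, 21.8 and 21.6 with OT in CTRL cells, and 5.23, 5.53 and 6.02 under DMSO and 23.5, 23.1 and 23 with OT in YAP1 KO cells. OT raised it in HCC4006 by 1.63 ± 0.08 SE (adjusted p = 1.65e-09) in CTRL and 1.88 ± 0.08 SE (adjusted p = 3.51e-10) in YAP1 KO, and every OT library there was above every DMSO library. In PC9 it rose by 0.37 (adjusted p = 3.41e-06) in CTRL and fell, at -0.20 (adjusted p = 0.000527) in YAP1 KO, and those responses differed by -0.57 (adjusted p = 2.06e-05). The line difference in the CTRL response was 1.26 (adjusted p = 2.15e-10).

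LAMB3, the beta chain that joins LAMA3 in the same trimer, fell in HCC4006 CTRL where LAMA3 rose. It was the most abundant of the 5 laminin chains per length in HCC4006, with means of 162 FPKM under DMSO and 124 with OT in CTRL, a change of -0.39 (adjusted p = 2.41e-06). In PC9 its mean was 20.7 FPKM under DMSO in CTRL and 32.6 in YAP1 KO with OT. LAMA5, the alpha chain of the common adult epithelial laminin, rose with OT in HCC4006 CTRL from 19.6 to 36.4 FPKM, by 0.84 (adjusted p = 7.23e-06). LAMC1, the gamma chain shared by most laminins, rose in CTRL by 0.44 (adjusted p = 3.41e-07) in PC9 cells and 0.40 (adjusted p = 0.00011) in HCC4006. LAMB1, the common beta chain, was lower in HCC4006 YAP1 KO with OT, at -0.63 (adjusted p = 6.38e-07). In CTRL under DMSO, LAMC1 had a mean of 16.6 FPKM in PC9 and 25.4 in HCC4006, and LAMB1 46.3 FPKM in PC9 and 23.8 in HCC4006.

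Proteoglycans carry long sugar chains that hold water and growth factors. VCAN, the chondroitin sulfate proteoglycan versican, had the largest change of any member with OT in HCC4006 on the log2(FPKM + 1) scale. It was there at 27.4, 23.8 and 27.2 FPKM under DMSO and 2.32, 1.98 and 1.9 with OT in CTRL cells, and 27, 27.3 and 25.3 under DMSO and 1.49, 1.03 and 1.44 with OT in YAP1 KO cells. It stood at 0.507 FPKM or less in PC9. All 6 OT libraries of HCC4006 were below the 6 DMSO libraries, with a log2 change of -3.14 ± 0.09 SE (adjusted p = 8.96e-12) in CTRL and -3.58 ± 0.09 SE (adjusted p = 2.02e-12) in YAP1 KO. As a ratio of mean FPKM, OT left 0.0791 of the VCAN level in CTRL and 0.0497 in YAP1 KO, against 0.0541 and 0.0342 for COL13A1, which fell further on that scale. VCAN did not pass the test between genotypes under DMSO, at 0.03 (adjusted p = 0.874).

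HSPG2, the basement membrane proteoglycan perlecan, was at 4.04, 4.08 and 3.54 FPKM under DMSO and 8.16, 7.2 and 6.7 with OT in CTRL cells, and 1.99, 2.01 and 2.04 under DMSO and 4.73, 4.92 and 5.54 with OT in YAP1 KO cells in PC9. Across HCC4006 libraries it stood at 4.72, 4.31 and 4.65 FPKM under DMSO and 14.3, 8.63 and 7.58 with OT in CTRL cells, and 3.79, 3.38 and 4 under DMSO and 7.08, 6.94 and 6.39 with OT in YAP1 KO cells. It rose with OT by 0.77 ± 0.07 SE (adjusted p = 1.1e-06) in PC9 CTRL and 1.01 ± 0.07 SE (adjusted p = 6.52e-08) in PC9 YAP1 KO, and by 0.96 ± 0.16 SE (adjusted p = 0.00013) and 0.73 ± 0.16 SE (adjusted p = 0.00112) in HCC4006. In PC9 it was lower in YAP1 KO, at -0.70 (adjusted p = 1.41e-05) under DMSO and -0.46 (adjusted p = 0.000213) with OT. HCC4006 CTRL OT replicate 1, at 14.3 FPKM, was the highest of its group: the YAP1 KO difference with OT there, -0.47 (adjusted p = 0.0326), was -0.22 (adjusted p = 0.0326) without it. That call was lost without any 1 of the 3 YAP1 KO OT libraries (adjusted p = 0.059, 0.0645 and 0.0917 without replicate 1, 2 and 3). AGRN, agrin, the other heparan sulfate proteoglycan of basement membranes, rose with OT in CTRL by 0.32 (adjusted p = 2.51e-05) in PC9 cells and 0.91 (adjusted p = 7.19e-09) in HCC4006, and was lower in PC9 YAP1 KO, at -0.71 (adjusted p = 1.5e-07) under DMSO. Its mean in CTRL under DMSO was 37.2 FPKM in PC9 and 37.2 in HCC4006.

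Among the matrix glycoproteins, SPARC, a collagen-binding matricellular protein, had opposite YAP1 KO differences in the lines, as COL6A2 did. In PC9 it was at 13.4, 13 and 14.5 FPKM under DMSO and 21.2, 19.6 and 21 with OT in CTRL cells, and 25.3, 25.3 and 25.7 under DMSO and 37.5, 39.4 and 37.6 with OT in YAP1 KO cells. In HCC4006 it was at 54.5, 55.5 and 53 FPKM under DMSO and 179, 185 and 185 with OT in CTRL cells, and 27.5, 26.2 and 25.4 under DMSO and 93, 95.9 and 96.2 with OT in YAP1 KO cells. No 2 groups of a line overlapped. Under DMSO YAP1 KO was higher in PC9 by 0.85 ± 0.04 SE (adjusted p = 4.51e-08) and lower in HCC4006, at -1.01 ± 0.04 SE (adjusted p = 1.8e-08), a line difference of -1.87 (adjusted p = 6.91e-15). With OT the values were 0.86 ± 0.04 SE (adjusted p = 2e-08) and -0.94 ± 0.04 SE (adjusted p = 7.07e-09), a line difference of -1.80 (adjusted p = 7.14e-15). OT raised SPARC in CTRL by 0.56 (adjusted p = 1.73e-07) in PC9 cells and 1.74 (adjusted p = 1.94e-12) in HCC4006, and the OT responses of the genotypes differed by 0.01 (adjusted p = 0.949) in PC9 cells and 0.07 (adjusted p = 0.4) in HCC4006, neither past the test.

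THBS1, thrombospondin-1, is an adhesive glycoprotein, an activator of latent TGF-beta and a known YAP1 target. PC9 libraries held 66.6, 65.7 and 66.4 FPKM under DMSO and 76.2, 70.8 and 67.4 with OT in CTRL cells, and 82, 82.1 and 85.6 under DMSO and 51.4, 47.9 and 49.9 with OT in YAP1 KO cells. HCC4006 libraries held 163, 163 and 163 FPKM under DMSO and 143, 128 and 125 with OT in CTRL cells, and 133, 131 and 131 under DMSO and 35.1, 35.9 and 33.9 with OT in YAP1 KO cells. The YAP1 KO OT group was the lowest in both lines, and in HCC4006 it stood at 33.9 to 35.9 FPKM against 125 or more in every other library. In YAP1 KO cells OT lowered THBS1, at -0.73 ± 0.04 SE (adjusted p = 6.07e-09) in PC9 and -1.88 ± 0.05 SE (adjusted p = 3.66e-12) in HCC4006. In CTRL cells the OT change was 0.11 (adjusted p = 0.0348) in PC9, a call lost without CTRL OT replicate 1 (adjusted p = 0.156) or 2 (0.0575) or any CTRL DMSO replicate (0.0627, 0.0831 and 0.0644), and -0.30 (adjusted p = 9.08e-05) in HCC4006, where it was -0.079 (adjusted p = 0.365) with every library rescaled to the same sum. The genotypes' OT responses differed by -0.84 (adjusted p = 2.1e-06) in PC9 cells and -1.58 (adjusted p = 9.54e-08) in HCC4006.

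FN1, fibronectin, the adhesive scaffold on which collagen fibrils assemble, was at 9.35, 9.24 and 8.55 FPKM under DMSO and 22.2, 20.8 and 20.6 with OT in CTRL cells, and 8.04, 8.77 and 8.11 under DMSO and 23.4, 22.2 and 25.7 with OT in YAP1 KO cells in PC9. The HCC4006 levels were 4.26, 4.24 and 4.5 FPKM under DMSO and 9.19, 7.51 and 7.01 with OT in CTRL cells, and 2.13, 2.24 and 2.18 under DMSO and 2.79, 2.65 and 2.45 with OT in YAP1 KO cells. All OT libraries of PC9 were above all its DMSO libraries. OT raised it in PC9 by 1.14 ± 0.06 SE (adjusted p = 3.08e-09) in CTRL and 1.41 ± 0.06 SE (adjusted p = 2.62e-10) in YAP1 KO. In HCC4006 it rose by 0.73 ± 0.08 SE (adjusted p = 2.98e-06) in CTRL, and the change in YAP1 KO, 0.19 (adjusted p = 0.045), was 0.16 (adjusted p = 0.135) without YAP1 KO OT replicate 1. It lost its call without any 1 of 9 of the 12 HCC4006 libraries, and was 0.070 (adjusted p = 0.413) with median-of-ratios scaling. It was lower in HCC4006 YAP1 KO, at -0.74 (adjusted p = 8.41e-05) under DMSO and -1.29 (adjusted p = 1.83e-07) with OT. The line difference of the last comparison was -1.44 (adjusted p = 3.91e-10).

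FBN1, fibrillin-1 of elastic microfibrils, was at 0.650 FPKM or less in PC9. Its values in HCC4006 were 9.78, 9.01 and 9.97 FPKM under DMSO and 20.9, 17.1 and 15.3 with OT in CTRL cells, and 9.31, 9.09 and 9.58 under DMSO and 6.92, 7.21 and 6.69 with OT in YAP1 KO cells. The CTRL OT libraries were the highest and the YAP1 KO OT libraries the lowest. OT raised it by 0.81 ± 0.09 SE (adjusted p = 2.58e-06) in CTRL. In YAP1 KO the change was -0.38 (adjusted p = 0.0015), and -0.21 (adjusted p = 0.131) with every library rescaled to the same sum. With OT it was lower in YAP1 KO, at -1.23 (adjusted p = 5.53e-07), and the OT responses differed by -1.19 (adjusted p = 5.12e-05).

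TNC, tenascin-C, a glycoprotein of remodelling stroma, was at 0.114 FPKM or less in PC9. Across HCC4006 libraries it stood at 50.5, 47.9 and 50.1 FPKM under DMSO and 16.4, 12.2 and 11.3 with OT in CTRL cells, and 62.2, 61.1 and 66.3 under DMSO and 15.5, 15.7 and 14.6 with OT in YAP1 KO cells. OT lowered it, at -1.84 ± 0.10 SE (adjusted p = 3.94e-09) in CTRL and -1.98 ± 0.10 SE (adjusted p = 1.58e-09) in YAP1 KO, and the OT and DMSO libraries did not overlap. VCAN and COL13A1 fell with OT in the same groups.

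TGFBI, a TGF-beta induced protein that binds collagens and integrins, had the highest level of the set per length in both lines. The PC9 levels were 158, 156 and 156 FPKM under DMSO and 141, 137 and 176 with OT in CTRL cells, and 173, 170 and 181 under DMSO and 174, 177 and 181 with OT in YAP1 KO cells. In HCC4006 it was at 1128, 1170 and 1159 FPKM under DMSO and 2243, 2379 and 2338 with OT in CTRL cells, and 931, 958 and 999 under DMSO and 1783, 1742 and 1906 with OT in YAP1 KO cells. Every OT library of HCC4006 was above every DMSO library. OT raised it there by 1.01 ± 0.05 SE (adjusted p = 3.22e-09) in CTRL and 0.91 ± 0.05 SE (adjusted p = 7.02e-09) in YAP1 KO. In PC9 CTRL the change was -0.06 (adjusted p = 0.457), and -0.17 (adjusted p = 0.000309) without PC9 CTRL OT replicate 3, the library at 176 FPKM. The line difference of the CTRL response was 1.07 (adjusted p = 1.51e-09). FBLN1, fibulin-1, which binds fibronectin and basement membrane proteins, had PC9 means of 46.2 FPKM under DMSO and 51.9 with OT in CTRL. In HCC4006 it rose with OT by 0.61 (adjusted p = 1.56e-05) in CTRL from 6.02 to 9.75 FPKM and was lower in YAP1 KO, at -0.55 (adjusted p = 0.000726) under DMSO.

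The promoters of THBS1, FBN1, SPARC and COL12A1 are printed from among the 5 members whose windows held a TEAD motif, because YAP1 acts through TEAD factors. They differed in HCC4006 YAP1 KO under DMSO or with OT, which does not set them apart. With OT, 31 of 37 tested members were called there. P4HA2, the member not printed, had HCC4006 YAP1 KO libraries that overlapped the CTRL libraries. Its ratios of mean FPKM were 0.969 under DMSO and 0.97 with OT. The core TEAD motif searched was GGAATG on either strand (CATTCC on the other), in RefSeq windows of GRCh38.p14 as above, and capitals mark a match. A window was given for 33 of the 39 members, 40 windows in all. The motif lay in 5 of these 40 windows, 12.5%, against 14% of 35116 windows of all genes, so the share was near the background. The distances from the start were -46 in THBS1 (chr15:39580829-39581128, plus strand), -58 in FBN1 (chr15:48644921-48645220, minus strand), -17 in SPARC (chr5:151686866-151687165, minus strand) and -167 in COL12A1 (chr6:75206004-75206303, minus strand); the fifth member was P4HA2. The AP-1 motif TGACTCA, or TGAGTCA on the other strand, lay in 2 of 40 windows, 5%, those of LAMA3 and LAMB3, against 4.95% of all windows. Neither of those windows held a TEAD match. A match describes letters in a window, and binding was not measured.
THBS1: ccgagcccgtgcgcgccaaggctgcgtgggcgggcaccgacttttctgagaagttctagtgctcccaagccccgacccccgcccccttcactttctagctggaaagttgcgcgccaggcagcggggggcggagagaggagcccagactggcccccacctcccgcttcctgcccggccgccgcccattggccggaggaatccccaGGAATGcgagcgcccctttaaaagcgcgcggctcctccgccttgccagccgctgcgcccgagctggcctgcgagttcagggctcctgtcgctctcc
FBN1: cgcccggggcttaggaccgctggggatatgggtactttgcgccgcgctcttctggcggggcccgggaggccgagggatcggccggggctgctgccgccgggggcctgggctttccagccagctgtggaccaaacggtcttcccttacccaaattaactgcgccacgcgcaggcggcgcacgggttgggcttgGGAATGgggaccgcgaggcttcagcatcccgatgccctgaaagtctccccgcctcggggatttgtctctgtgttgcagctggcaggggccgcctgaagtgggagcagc
SPARC: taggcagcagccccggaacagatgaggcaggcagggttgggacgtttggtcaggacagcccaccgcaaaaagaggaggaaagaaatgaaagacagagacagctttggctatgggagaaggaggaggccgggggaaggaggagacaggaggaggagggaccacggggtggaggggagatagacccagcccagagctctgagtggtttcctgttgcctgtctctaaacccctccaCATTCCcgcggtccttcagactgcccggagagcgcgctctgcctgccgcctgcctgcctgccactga
COL12A1: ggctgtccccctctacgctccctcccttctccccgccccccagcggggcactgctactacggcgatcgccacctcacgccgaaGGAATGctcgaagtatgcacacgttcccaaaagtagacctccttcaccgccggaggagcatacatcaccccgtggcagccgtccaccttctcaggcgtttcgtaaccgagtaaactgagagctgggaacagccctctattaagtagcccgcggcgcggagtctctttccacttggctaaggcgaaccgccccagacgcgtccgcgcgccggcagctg

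A second list of 98 other matrix genes, also drawn up with earlier results known, was counted in the same fits. In PC9, 40 were tested: OT raised 23 and lowered 12 in CTRL, and 21 and 15 in YAP1 KO, and YAP1 KO was higher for 16 and lower for 13 under DMSO and 16 and 15 with OT. The shares of all PC9 genes were 32.0% higher and 40.9% lower with OT in CTRL, 36.9% and 41.4% in YAP1 KO, and for YAP1 KO 19.8% and 20.0% under DMSO and 28.5% and 25.2% with OT. In HCC4006, 46 were tested: OT raised 27 and lowered 12 in CTRL, and 25 and 17 in YAP1 KO, and YAP1 KO was higher for 5 and lower for 11 under DMSO and 6 and 24 with OT. Beside these stand the shares of all genes called in HCC4006, 45.0% higher and 36.6% lower with OT in CTRL, 46.4% and 36.5% in YAP1 KO, and for YAP1 KO 9.20% and 8.65% under DMSO and 27.2% and 16.4% with OT.

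Type IV chains outside the list rose with OT. COL4A3 and COL4A4, chains of the kidney and lung alveolar basement membrane, rose in HCC4006 CTRL by 2.54 (adjusted p = 1.02e-11) and 2.85 (adjusted p = 8.68e-12), and in PC9 CTRL by 1.49 (adjusted p = 7.55e-10) and 1.30 (adjusted p = 3.85e-09). THBS3, a relative of THBS1, rose by 2.25 (adjusted p = 4.08e-12) and 1.39 (adjusted p = 6.3e-10) in the same comparisons. LAMB2, a laminin beta chain, rose in HCC4006 CTRL by 2.39 (adjusted p = 1.42e-11). TGM2, a transglutaminase that crosslinks fibronectin and other matrix proteins, fell in PC9, at -4.44 (adjusted p = 4e-14) in CTRL and -4.55 (adjusted p = 8.84e-15) in YAP1 KO. MFAP2, a microfibril-associated glycoprotein, was higher in PC9 YAP1 KO by 2.04 (adjusted p = 9.96e-07) under DMSO and 2.18 (adjusted p = 2.78e-07) with OT, and rose with OT in HCC4006 CTRL by 2.27 (adjusted p = 3.16e-11). In HCC4006 YAP1 KO with OT, SPOCK2, a testican proteoglycan, and LEPREL1, a prolyl 3-hydroxylase of collagen, were both lower, at -1.86 (adjusted p = 1.52e-10) and -1.28 (adjusted p = 2.74e-08).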

How the data were processed

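The deposited table holds FPKM per gene symbol for 24 libraries made with a stranded poly(A) kit, per the labels' protocols. Cufflinks 2.2.1, DESeq2 1.10.1 and STAR 2.5.1b, and the builds hg19 and GRCh37, are listed per the submitters' processing notes without role or order; the annotation, and whether strand was used in counting, are not given in the sources used here, so reads of overlapping antisense genes cannot be told apart. All 24 columns were matched to samples by name. The authors' FPKM values were transformed to log2(FPKM + 1) and fitted with limma 3.58.1 in R 4.3.3 (4 groups per line, 8 residual degrees of freedom, trended moderation); comparisons between lines used all 24 libraries. Genes at 1 FPKM or more in 3 libraries were tested, p-values were adjusted over all of them (Benjamini-Hochberg), and a gene was called at an adjusted p under 0.05. SE is the moderated standard error. The genotype-by-drug term is the OT change in YAP1 KO minus that in CTRL. Scripts were tested on simulated data. Members and lists were chosen with earlier results of these data known. Values in every library are given for members whose change or difference reached 2-fold at an adjusted p under 0.05 in any comparison within a line, and others by mean; COL4A1 and COL4A2, shown for their shared promoter, were added after their values were seen. Other matrix genes are named from the 6 or fewer largest past 2-fold per comparison. Alternatives were an added 0.1 FPKM, no filter, a filter at 5 FPKM, median-of-ratios scaling, equal library sums, a replicate block and leaving out each library.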

Additional observations from a re-analysis of the deposited data

Results flagged for a closer look

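Differences between genotypes or lines were picked out where a test of the difference itself passed at an adjusted p under 0.05 and, for single genes, reached 2-fold; they are listed as values. Chance alone passes some of the many genes tested, and the share called among all genes stands in the results above. The OT response differed between YAP1 KO and CTRL for 12 genes in PC9 and 19 in HCC4006. Past 2-fold in HCC4006 were COL1A2 at -1.21, COL12A1 at -1.11, LOX at -1.10, LOXL1 at -1.02, THBS1 at -1.58 and FBN1 at -1.19 on the log2 scale. The COL1A2 value was -0.38 (adjusted p = 0.133) with 0.1 FPKM added, and its ratios of mean FPKM with OT were 12.2 in CTRL and 12.1 in YAP1 KO.

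Between lines, as HCC4006 minus PC9, the OT response in CTRL cells differed for 23 genes, past 2-fold for COL13A1 at -1.24, LOX at 2.53, LAMA3 at 1.26, SPARC at 1.18 and TGFBI at 1.07. Of all 11845 genes, 624 were larger and 455 smaller past 2-fold. COL13A1 was under 1 FPKM in every PC9 CTRL library, which limits its fall on the log2(FPKM + 1) scale. It fell to near 0 there, while HCC4006 CTRL kept 0.0541 of its mean FPKM, so this value does not rank the falls of the lines. The YAP1 KO difference under DMSO differed between lines for 24 genes, past 2-fold for COL6A2 at -2.17 and SPARC at -1.87, beside 40 genes larger and 102 smaller of all 11845. With OT it differed for 21 genes, past 2-fold for COL6A2 at -2.14, LOX at -1.70, LOXL2 at -1.02, LOXL4 at -1.54, FN1 at -1.44, SPARC at -1.80 and THBS1 at -1.37. Of all 11845 genes, 96 were larger and 196 smaller past 2-fold with OT.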

How the results depend on the processing

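Counts of called members moved by more than 1.5 times in a few settings. With a filter at 5 FPKM, 5 members in place of 8 fell with OT in PC9 CTRL, with 26 members tested. With no filter, 21 in place of 13 had a larger OT response in HCC4006 CTRL than in PC9 CTRL, with 43 tested, and with every library rescaled to the same sum 5 in place of 10 had a smaller one. For the genotype-by-drug term in PC9, leaving out single libraries gave 2 to 7 members above 0 and 5 to 8 below. Leaving out a library lost 136 member calls over all comparisons and settings of that kind, gained 45 and reversed 0. Of the members' values called in the reported fit, 3 changed sign and lost their call: LOXL4 in the HCC4006 genotype-by-drug term, at 0.33 (adjusted p = 0.222) with 0.1 FPKM added, and the OT changes of P4HA2 in HCC4006 under equal sums, at 0.041 (0.509) in CTRL and 0.015 (0.811) in YAP1 KO. Another 3 were near 0 and not called in the reported fit and were called with the opposite sign: COL4A1 in the line difference of YAP1 KO with OT, at 0.53 (0.0359) with 0.1 FPKM added, and the OT changes in HCC4006 YAP1 KO of PLOD1, at 0.17 (0.0346) under equal sums, and of LAMC1, at -0.15 (0.0445) under median-of-ratios scaling. Without PC9 CTRL OT replicate 3 that COL4A1 difference was called with the sign of the reported fit, at -0.24 (0.0152). The cause of the sign changes was not tested.

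Correlations between libraries could not settle whether the replicate numbers pair the dishes. Deviations of same-numbered libraries correlated at -0.264 to 0.161 in PC9 and -0.15 to 0.236 in HCC4006. Their median was 0.00305 against -0.00248 for other numbers in PC9, and 0.0485 against -0.0287 in HCC4006. Of the 12 libraries of each line, 4 in PC9 and 7 in HCC4006 correlated best with their own number. A fit with the replicate block lost 4 member calls, COL6A1 in HCC4006 YAP1 KO with OT (adjusted p = 0.0546), LAMB1 in HCC4006 YAP1 KO under DMSO (0.0509) and between lines (0.0624), and FN1 in PC9 YAP1 KO with OT (0.0541), and changed no other member's call. FPKM keep no depth, so the counting error of low members such as COL13A1 and COL16A1 is unknown.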

Other observations

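Some members below the level at which they were tested differed between groups of libraries; these are values with no test. VCAN in PC9 was at 0.453, 0.476 and 0.507 FPKM in YAP1 KO under DMSO and at 0, 0.0318 and 0.037 FPKM in CTRL under DMSO. COL6A3, the partner chain of COL6A1 and COL6A2, was at 0.261, 0.175 and 0.268 FPKM in PC9 YAP1 KO under DMSO and at 0.0878, 0.0823 and 0.0601 FPKM in PC9 CTRL under DMSO. COL5A2, the partner chain of COL5A1, was at 0.303, 0.306 and 0.282 FPKM in HCC4006 CTRL with OT and at 0.117, 0.0618 and 0.133 FPKM under DMSO.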
